A study of Rattus norvegicus with 4 samples.

Results

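The genes described here are 9 that mark microglia, the resident macrophages of the central nervous system, or serve their uptake and digestion of debris: Aif1, Tmem119, Irf8, Csf1r, Itgam, Trem2, Tyrobp, Cd68 and Ctss. A probe belonged to them if the accession on the array mapped to one of these rat genes. All 9 had at least 1 probe, and all 9 passed the filter on dim probes, out of 22821 genes tested. They were measured in total RNA of the spinal dorsal horn, the part of the cord that receives sensory input, of male rats aged 6 weeks on day 10. On 2 Agilent 2-colour arrays the Cy5 channel held RNA of rats given oxaliplatin, a platinum drug against colorectal cancer that can damage sensory nerves. On 2 further arrays it held RNA of rats given the vehicle. Per the labels the Cy3 channel of all 4 arrays held RNA of untreated male rats of the same age and tissue, and no dye was swapped. The protocol text names Cy3 labelling only, so which RNA carried which dye, and with it the direction of every Cy5 against Cy3 ratio, rests on the channel labels. The labels call the arrays of a group biological replicates. The strain, the dose and the number of rats behind an array are not given in the sources used here, so the p-values below measure only the spread between arrays.

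Microglia depend on signals through the receptor Csf1r and on the transcription factors PU.1 and Irf8 for their survival and identity. Trem2, a receptor for lipids and apolipoproteins on their surface, has no signalling tail of its own and passes its signal to the adaptor Tyrobp. Engulfed material reaches lysosomes, where membrane proteins such as Cd68 and proteases such as Ctss (cathepsin S) are found. In the dorsal horn these cells are known for their response to peripheral nerve injury. In whole tissue, a lower signal from fewer microglia and one from less RNA per microglial cell cannot be told apart.

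Promoter windows, from 250 bases before to 50 after the start of the gene, were held for 6 of the 9 genes in the RefSeq table of rat build GRCr8 (Irf8, Csf1r, Itgam, Trem2, Cd68 and Ctss). The windows of 3 genes are shown because their ratios differ below. Ctss and Trem2 had a lower Cy5 than Cy3 signal at an adjusted p under 0.05 in the main fit, and Cd68 did not. Itgam, also lower, and Csf1r, not so, each had 2 of the PU boxes marked here, as Cd68 had. A link between motifs and ratios was not tested. Capitals mark GAGGAA on either strand, the core of the PU box that PU.1 is known to bind.
Ctss, chr2:185775146-185775445, plus strand: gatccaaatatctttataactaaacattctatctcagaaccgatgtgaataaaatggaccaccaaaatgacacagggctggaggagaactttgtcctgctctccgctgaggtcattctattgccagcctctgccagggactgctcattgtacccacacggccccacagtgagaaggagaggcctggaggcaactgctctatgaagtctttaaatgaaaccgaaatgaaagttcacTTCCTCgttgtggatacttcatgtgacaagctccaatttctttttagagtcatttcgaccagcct
Trem2, chr9:20151730-20152029, minus strand: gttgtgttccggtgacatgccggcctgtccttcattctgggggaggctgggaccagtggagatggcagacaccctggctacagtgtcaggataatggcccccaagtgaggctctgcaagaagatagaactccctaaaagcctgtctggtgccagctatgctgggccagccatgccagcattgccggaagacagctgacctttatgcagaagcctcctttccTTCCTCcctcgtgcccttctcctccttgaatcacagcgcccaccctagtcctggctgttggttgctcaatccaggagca
Cd68, chr10:54882392-54882691, minus strand: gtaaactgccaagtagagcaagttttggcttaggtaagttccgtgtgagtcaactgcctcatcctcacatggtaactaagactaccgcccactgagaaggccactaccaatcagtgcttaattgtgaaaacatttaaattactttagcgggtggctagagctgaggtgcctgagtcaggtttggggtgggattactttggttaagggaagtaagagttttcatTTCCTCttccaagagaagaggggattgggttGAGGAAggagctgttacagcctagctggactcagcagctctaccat

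The 6 letters were present in 5 of the 6 windows, all but that of Irf8, and in 27.6% of all 33469 promoter windows of this length in the table. The longer run GAGGAAGT was present in the Ctss window only among the 6, and in 2.42% of all windows. The joint ETS and IRF motif, GGAA and GAAA with 2 bases between them, was in the Cd68 window, where it overlaps 1 of the 2 marked PU boxes, and in 2.94% of all windows. The IRF motif, GAAA repeated with 2 bases between, was in the Ctss window, and in 3.92% of all windows. These are matches of letters on both strands, and no binding was measured here. Other ETS motifs were also searched and are left out.

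The arrays were not alike in ways that bear on the 9 genes. Oxaliplatin replicate 2 had a median Cy3 spot signal of 283.5, where the other arrays had 494 to 564, while the median Cy5 signal was 913 to 1023.5 on all 4. In normalised log2 Cy5 signal, the oxaliplatin arrays differed from each other by a median of 0.060 over 13900 probes with 2 spots, less than the 0.12 to 0.15 by which the 2 spots of a probe differed on 1 array. The vehicle arrays differed from each other by 0.13. The oxaliplatin arrays shared a scan, while the vehicle arrays came from different scans. Whether both oxaliplatin arrays carried 1 RNA in Cy5, against their labels as biological replicates, cannot be told from these values. In Cy5 they are therefore also counted as 1 sample below, and the SDs over the oxaliplatin arrays may not hold the spread between rats. In Cy3 the oxaliplatin arrays differed by 0.17, more than the 0.13 to 0.15 between spots. Both oxaliplatin arrays lay on 1 slide and both vehicle arrays on another, so slide and treatment cannot be told apart. The log2 Cy5/Cy3 ratios of the 4 arrays correlated with each other by 0.75 to 0.93 across genes. The number of arrays limits the precision.

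Tissue markers differed between the channels on every array. Of 12 Schwann cell and ganglion neuron markers, all 12 had a higher Cy5 than Cy3 signal at an adjusted p under 0.05, with a median log2 ratio of 2.80 (29.3% of all genes were called higher in Cy5). Of 8 oligodendrocyte markers all 8 were called lower in Cy5 (26.3% of all genes), with a median of -1.49, and of 8 astrocyte markers 6 were, with a median of -0.999. Of 7 neuron markers 4 were called higher and 2 lower (median 1.07), and of 4 measured genes of cord level and dorsal horn neurons 1 was called higher and 3 lower (median -1.21). The share of peripheral tissue in the microglial values below was not tested, and each Cy5 against Cy3 value is also one of dye against dye.

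The first comparison sets the treated rats' RNA in Cy5 against the untreated RNA in Cy3, averaged over the 4 arrays. The Cy5 signal was called lower, at an adjusted p under 0.05 in limma, for 5 of the 9 genes (Tmem119, Itgam, Trem2, Tyrobp and Ctss). It was called higher for 0 of them. In direction alone 7 had a mean ratio below 0, among them Aif1 at -0.0076 and Irf8 at -0.0021, and 2 had one above 0. Over all genes 26.3% were called lower in Cy5. The median log2 ratio of the 9 was -0.44, against 0.029 over all genes. It was -0.24 without oxaliplatin replicate 1 and -0.12 with median centring. The 5 genes called lower are 1 cathepsin, 1 complement receptor chain, the pair Trem2 and Tyrobp, and the surface marker Tmem119.

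Ctss, the cathepsin of microglial lysosomes, had log2 ratios of -0.98 and -0.32 on oxaliplatin replicates 1 and 2, and of -0.49 and -0.76 on the vehicle arrays. All 4 lay below 0, with a mean of -0.64 ± 0.11 (SE, n = 4 arrays; limma, adjusted p = 0.00301). Itgam, the alpha chain of complement receptor 3, which takes up complement-coated particles, had ratios of -0.99 and -0.070 on the oxaliplatin arrays, and of -0.60 and -0.90 on the vehicle arrays. Its mean was -0.64 ± 0.14 (adjusted p = 0.00860 in limma), and oxaliplatin replicate 2 stood near 0, apart from the rest.

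Tyrobp, the adaptor whose cytoplasmic tail recruits the kinase Syk, had ratios of -1.06 and -0.17 on the oxaliplatin arrays and of -0.51 and -0.54 on the vehicle arrays. The mean was -0.57 ± 0.13 (SE, n = 4 arrays; limma, adjusted p = 0.0103). Its receptor partner Trem2 had ratios of -0.74 and 0.10 on the oxaliplatin arrays and of -0.64 and -0.53 on the vehicle arrays, with a mean of -0.45 ± 0.13 (adjusted p = 0.0223 in limma). Both vehicle arrays were close together for each gene of this pair, and the oxaliplatin arrays lay on either side of them. Tmem119, a membrane protein that in brain and cord marks microglia rather than other macrophages, had ratios of -0.51 and -0.18 on the oxaliplatin arrays and of -0.26 and -0.79 on the vehicle arrays. Its mean was -0.44 ± 0.10 (adjusted p = 0.0101 in limma), below 0 on all 4 arrays.

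The sizes depended on 1 array. Without oxaliplatin replicate 1 the means were -0.24 for Trem2, -0.35 for Tyrobp and -0.41 for Itgam, and all 3 were still called (adjusted p = 0.0217, 0.00367 and 0.00425 in limma). The calls depended on the normalisation. When ratios were median centred without loess, the means of Trem2, Tyrobp and Ctss were -0.12, -0.19 and -0.12, and none of these 3 was called (adjusted p = 0.443, 0.250 and 0.392 in limma), while Tmem119 and Itgam still were. With the scanner software's own log ratio Trem2 missed the threshold (-0.49, adjusted p = 0.0503 in limma). The direction of these 5 genes was the same under every alternative tried.

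The other 4 genes were not called with loess. Cd68, a lysosomal membrane glycoprotein found in macrophages throughout the body, had ratios of -0.19 and 0.35 on the oxaliplatin arrays and of 0.56 and 0.30 on the vehicle arrays, with a mean of 0.25 ± 0.10 (SE, n = 4 arrays; limma, adjusted p = 0.0634). It was above 0 on 3 of 4 arrays, was called higher with median centring (0.34, adjusted p = 0.0309 in limma), and also when oxaliplatin replicate 1 was left out (0.39, adjusted p = 0.00471). Aif1, the actin-binding protein known as Iba1 in histology, had ratios of -0.49 and 0.44 on the oxaliplatin arrays and of 0.069 and -0.056 on the vehicle arrays, with a mean of -0.0076 ± 0.14. Its mean was 0.48 with median centring, which was called (adjusted p = 0.0146 in limma), and it was called with opposite signs when an oxaliplatin array was left out, at 0.22 without replicate 1 and at -0.24 without replicate 2 (adjusted p = 0.0293 and 0.0200).

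Csf1r, the receptor for Csf1 and Il34, had ratios of -0.15 and 0.069 on the oxaliplatin arrays and of 0.12 and 0.27 on the vehicle arrays, with a mean of 0.078 ± 0.066 (SE, n = 4 arrays). Irf8, a transcription factor of the myeloid lineage, was dim. Its Cy5 signals above local background were 37.25 and 42.5 scanner units on the oxaliplatin arrays and 71.0 and 57.25 on the vehicle arrays, and in Cy3 it was not well above background on oxaliplatin replicate 2. Its ratios lay between -0.031 and 0.053, and since the background correction adds 50 units to every signal, ratios of so dim a probe are drawn towards 0. With median centring its mean was -0.36 and was called lower (adjusted p = 0.0139 in limma).

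**Figure D1:**
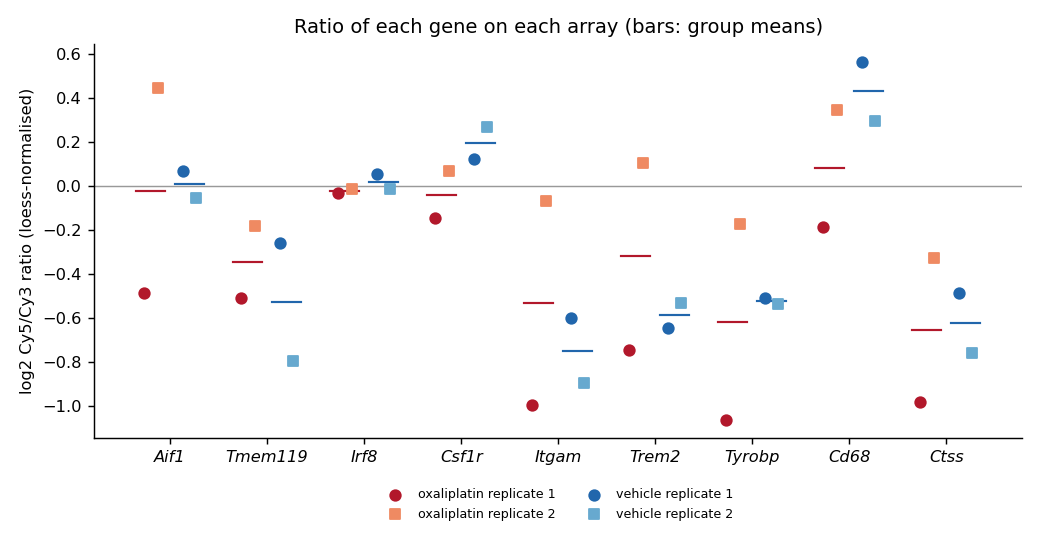
Loess-normalised log2 Cy5/Cy3 ratio (vertical axis) of the 9 genes (horizontal axis), with 1 point per array, oxaliplatin arrays left and vehicle arrays right, and a bar at each group mean. Oxaliplatin replicate 2 lies above oxaliplatin replicate 1 for the genes other than Irf8, whose 4 points nearly coincide, and for most of them the vehicle arrays lie between or beside the pair.

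The second comparison asks whether the ratio differed between the oxaliplatin and the vehicle arrays. No gene of the 9 passed the test, and 0% of the 22821 genes did (limma with Benjamini-Hochberg adjustment, where 3342 genes had an unadjusted p under 0.05, none of the 9 among them). Of the 9 genes 3 had a higher mean ratio on the oxaliplatin arrays and 6 a lower one, with a median difference of -0.031 (log2, oxaliplatin minus vehicle), against 0.0055 over all genes. That median was -0.34 without oxaliplatin replicate 2 and 0.35 without oxaliplatin replicate 1, so a single array decided its sign. Without vehicle replicate 1 it was 0.035.

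The 3 with higher means were Trem2, Itgam and Tmem119. Trem2 averaged -0.32 ± 0.60 on the oxaliplatin arrays and -0.59 ± 0.080 on the vehicle arrays (SD, n = 2 each), a difference of 0.27 with a 95% interval of -0.35 to 0.88. Itgam averaged -0.53 ± 0.65 and Tmem119 -0.35 ± 0.23 on the oxaliplatin arrays, against -0.75 ± 0.21 and -0.53 ± 0.38 on the vehicle arrays. The groups overlapped for each of them. Without oxaliplatin replicate 1 the difference of Trem2 was 0.69 and was called (adjusted p = 0.0432 in limma), together with 937 genes in all. The remaining oxaliplatin array was then assumed to vary as the vehicle arrays do.

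The most negative differences were those of Cd68 and Csf1r. Cd68 averaged 0.080 ± 0.38 on the oxaliplatin arrays and 0.43 ± 0.19 on the vehicle arrays, a difference of -0.35 with a 95% interval of -0.82 to 0.12. Csf1r averaged -0.039 ± 0.15 on the oxaliplatin arrays and 0.20 ± 0.10 on the vehicle arrays, a difference of -0.23 (interval -0.55 to 0.079). Csf1r was the only one of the 9 whose groups did not overlap in the probe used, being lower on both oxaliplatin arrays. Among all genes 22.2% were apart in that direction and 27% in the other, so 1 of 9 is no more than the share over all genes.

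Tyrobp, Irf8, Ctss and Aif1 differed by -0.094, -0.042, -0.031 and -0.028. The 95% interval was -0.31 to 0.23 for Irf8, and it was wider for the other 3, with -0.73 to 0.54 for Tyrobp, -0.56 to 0.50 for Ctss and -0.69 to 0.64 for Aif1. The Irf8 interval leaves out the effect of the normalisation: with median centring the difference was -0.50, outside it (adjusted p = 0.293 in limma), and with log ratios from the scanner software it was 0.18. Changes within these intervals could not be seen with 2 arrays per group.

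What the members shared was the gap between the oxaliplatin arrays. The ratio was higher on oxaliplatin replicate 2 than on oxaliplatin replicate 1 for 9 of 9 genes, as it was for 48.6% of all genes. For Irf8 the gap was 0.016 while the SD over its spots reached 0.14, so the order of its arrays cannot be read, and it adds nothing to this count or to the next ones. Oxaliplatin replicate 1 had the lowest ratio of the 4 arrays for 8 of the 9 genes, all but Tmem119 (17.5% of all genes), and replicate 2 the highest for 6 (33.6%). The gap had a median of 0.66 over the 9 genes, against 0.16 over all genes, while the vehicle arrays were 0.14 apart over the 9 genes and 0.12 over all genes. For 7 of the 9 genes the gap was larger than the difference between the group means, as it was for 12198 of all 22821 genes. Of the 9, Aif1, Itgam, Tyrobp and Trem2 had the widest gaps, at 0.93, 0.92, 0.89 and 0.85. Over the 17 other microglial genes described below, the gap between the oxaliplatin arrays had a median of 0.19.

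This gap lay mainly in the Cy3 channel, which held the untreated RNA. Normalised log2 Cy3 signals of all 9 genes were lower on oxaliplatin replicate 2 than on oxaliplatin replicate 1 (by an unreadable amount for Irf8), as they were for 50.5% of all genes. For Trem2 the oxaliplatin arrays had 13.31 and 12.44 and the vehicle arrays 13.35 and 13.41. In Cy5 the same gene was at 12.57 and 12.55 on the oxaliplatin arrays and at 12.70 and 12.88 on the vehicle arrays. Replicate 2 minus replicate 1 was thus -0.87 in Cy3 but -0.019 in Cy5. Over the 9 genes this step ran over -1.18 to -0.0039 in Cy3 and over -0.26 to 0.057 in Cy5.

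Tyrobp had Cy3 signals of 14.04 and 13.17 on the oxaliplatin arrays and of 13.62 and 13.70 on the vehicle arrays, and Cy5 signals of 12.98 and 13 on the oxaliplatin arrays against 13.11 and 13.16 on the vehicle arrays. Ctss had Cy3 signals of 14.92 and 14.27 on the oxaliplatin arrays and of 14.44 and 14.58 on the vehicle arrays, while its Cy5 signals were 13.94 and 13.95 on the oxaliplatin arrays and 13.96 and 13.83 on the vehicle arrays. Aif1 had Cy3 signals of 14.51 and 13.63 on the oxaliplatin arrays and of 14.02 and 14.12 on the vehicle arrays, and its 4 Cy5 signals lay between 14.02 and 14.09. For each of these 3 genes the vehicle arrays stood between the oxaliplatin arrays in Cy3, and the Cy5 signals lay closer together than the Cy3 signals. Itgam had the widest gap in Cy3, at 9.49 and 8.31 on the oxaliplatin arrays and 8.79 and 9.31 on the vehicle arrays.

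Red cell markers moved against this order. Of 4 measured, 0 had a higher ratio on oxaliplatin replicate 2 than on replicate 1. The haemoglobin chain Hbb had ratios of 2.78 and 0.35 on the oxaliplatin arrays and of 1.25 and 0.084 on the vehicle arrays, and the list had medians of 1.88 and -0.028 on the oxaliplatin arrays and of 0.68 and -0.21 on the vehicle arrays. Of the other microglial genes described below, 15 of 17 were higher on oxaliplatin replicate 2, as were 7 of 8 astrocyte and 7 of 8 oligodendrocyte markers, and 2 of 12 Schwann cell and ganglion markers. The part of blood, of other cells and of the dim Cy3 channel in the gap was not tested.

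**Figure D2:**
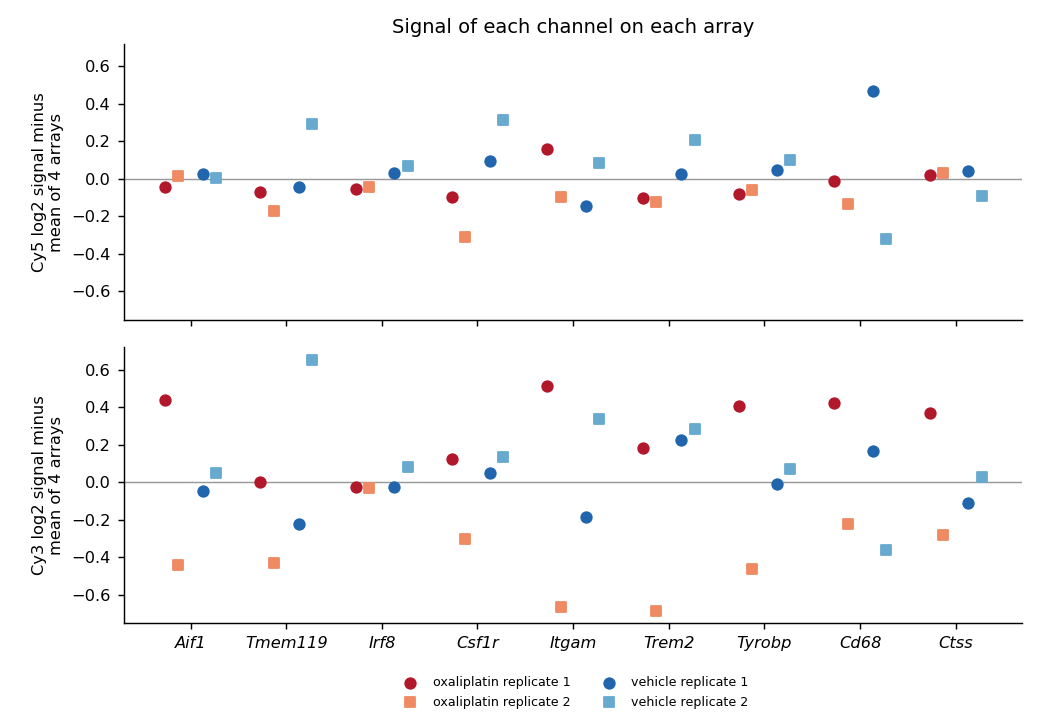
Normalised log2 signal of the 9 genes on each array minus the mean of the 4 arrays, for Cy5 (upper panel) and Cy3 (lower panel), oxaliplatin arrays left and vehicle arrays right. The oxaliplatin arrays lie closer together in Cy5 than in Cy3 for 8 of the 9 genes, and in Cy3 replicate 2 is the lower for these 8, while for Irf8 the order cannot be read.

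Since the ratio takes in the Cy3 channel, the groups were also compared in Cy5 alone, the channel of the treated rats. Of the 9 genes 7 were lower and 2 higher on the oxaliplatin arrays, with a median difference of -0.15, against -0.0025 over all genes. Both oxaliplatin arrays lay below both vehicle arrays for 5 of the 9 (Tmem119, Irf8, Csf1r, Trem2 and Tyrobp), as they did for 30.2% of all genes. The dim Irf8 was at 6.73 and 6.74 on the oxaliplatin arrays and at 6.82 and 6.85 on the vehicle arrays. It lay close to background and adds little to this count. None of the 9 passed the test, and 0% of all genes did (limma, 4674 genes with an unadjusted p under 0.05).

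Csf1r had the lowest unadjusted p of the 9 in Cy5. Its signals were 9.93 and 9.71 on the oxaliplatin arrays and 10.12 and 10.34 on the vehicle arrays, a difference of -0.41 ± 0.13 (SE; limma, adjusted p = 0.215, unadjusted p = 0.0287). Tmem119 was at 9.67 and 9.57 on the oxaliplatin arrays and at 9.69 and 10.03 on the vehicle arrays, where replicate 2 stood above the rest. These and the other Cy5 values of Tmem119 here are those of its brighter probe, with a difference of -0.25. The dimmer probe had Cy5 signals above local background of 334.5 and 307 scanner units on the oxaliplatin arrays. On the vehicle arrays it had 314 and 212, with replicate 2 the lowest. With the mean over probes the Tmem119 difference in Cy5 was -0.0066. Trem2 and Tyrobp differed by -0.24 ± 0.093 and -0.15 ± 0.072. With the oxaliplatin arrays counted as 1 sample the adjusted p-values of these 4 genes and of Irf8 were 0.838 to 0.905 in limma. That fit has 1 residual degree of freedom, its spread comes from the vehicle arrays alone, and its count of 0 genes called does not bear on whether the groups differ. Without vehicle replicate 1, Tmem119 (-0.41, adjusted p = 0.0397 in limma) and Trem2 (-0.33, adjusted p = 0.0419) were called lower, with 5576 genes in all, and that fit rests on the spread between the oxaliplatin arrays alone.

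Cd68 differed between the vehicle arrays more than between the groups in Cy5. It was at 10.34 and 10.22 on the oxaliplatin arrays and at 10.82 and 10.03 on vehicle replicates 1 and 2. In Cy3, where both groups held untreated RNA, the 9 genes had a median difference of -0.058, and 0 of them and 0% of all genes were called (limma, 4761 genes with an unadjusted p under 0.05). There 2 of the 9 (Irf8 and Trem2) were lower on both oxaliplatin arrays, against 31.3% of all genes. Irf8 was at 6.759 and 6.755 on the oxaliplatin arrays and at 6.762 and 6.868 on the vehicle arrays. So close to background, its order cannot be read. The Cy3 channel thus had about as many genes with an unadjusted p under 0.05 as the Cy5 channel, though no treatment separates its groups.

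Of the 9 genes 3 had 2 probes, and the pairs did not always give the same direction. The brighter Csf1r probe, of 1 spot, was lower on the oxaliplatin arrays as given above, while the other, of 2 spots, had ratios of -0.56 and -0.063 on the oxaliplatin arrays and of -0.52 and -0.60 on the vehicle arrays, a difference of 0.25. The groups overlapped for that probe, and its 4 ratios averaged -0.44, against 0.078 for the brighter one. The dimmer Aif1 probe had ratios of -0.75 and 0.15 on the oxaliplatin arrays and of -0.28 and -0.57 on the vehicle arrays, a difference of 0.13, where the brighter probe gave -0.028. Both Aif1 probes had the same order of the oxaliplatin arrays.

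Tmem119 shows the precision within an array. Its brighter probe was printed at 10 places, and the SD of the ratio over these spots was 0.046 to 0.12 on the 4 arrays. Vehicle replicate 2 minus replicate 1 was -0.53 in this probe, wider than the spread over spots on any array. The dimmer Tmem119 probe, with 1 spot, had ratios of -0.10 and -0.0094 on the oxaliplatin arrays and of -0.23 and -0.91 on the vehicle arrays, and vehicle replicate 2 was the lowest in both probes. It did not overlap between the groups, being higher on the oxaliplatin arrays, with a difference of 0.51.

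**Figure D3:**
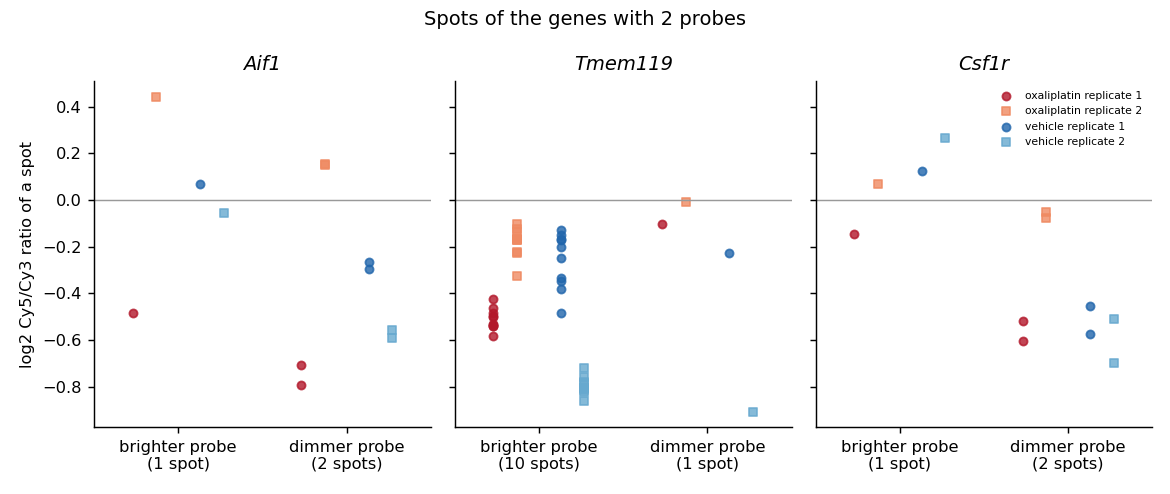
Log2 Cy5/Cy3 ratio of each spot (vertical axis) for the 3 genes with 2 probes, with points by array, oxaliplatin arrays left and vehicle arrays right within each probe. Outlier spots are left out, 1 of them on vehicle replicate 2 in the brighter Tmem119 probe. The other spots of that probe on that array lie at -0.86 to -0.72, below those of the other 3 arrays. Among these 3, vehicle replicate 1 overlaps both oxaliplatin arrays. The 2 Csf1r probes differ in whether the oxaliplatin arrays lie below the vehicle arrays.

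Other genes of the same cells and functions, taken from lists, were described by the same counts. None of their members passed the test of the group difference in the ratio. Of 17 other microglial genes measured 8 had higher and 9 lower ratios on the oxaliplatin arrays, with a median difference of -0.0043. In Cy5 against Cy3, 7 of the 17 were called lower and 4 higher (26.3% and 29.3% of all genes), with a median ratio of -0.092. Among those called lower were Sall1 (-0.96), a transcription factor of microglia that other cells of the nervous system can also express, and the ADP receptor P2ry12 (-0.50). The rest of those called lower were Fcer1g (-0.43), Ptprc (-0.39), Ly86 (-0.39), Spi1 (-0.36) and Laptm5 (-0.23). Runx1 (0.61), a transcription factor of blood cells, and the leukocyte tetraspanin Cd53 (0.50) were called higher, and so were the microglial genes Cx3cr1 (0.41), the fractalkine receptor, and Olfml3 (0.33), so microglial genes were called in both directions.

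In the group difference, Slc2a5, a fructose transporter of microglia, had ratios of -0.19 and 0.088 on the oxaliplatin arrays and of 0.35 and 0.42 on the vehicle arrays, a difference of -0.44 ± 0.14 (SE; adjusted p = 0.300 in limma). Cd53 differed by -0.43 ± 0.15 and Sall1 by 0.36 ± 0.14 (adjusted p = 0.308 and 0.318 in limma). The groups of these 3 genes, those with the smallest p of the 17, did not overlap, and they differed in opposite directions. Over the 17 genes 4 were apart in the higher and 3 in the lower direction (27% and 22.2% of all genes). Slc2a5, Cd53 and Sall1 differed by 0.14, 0.28 and -0.12 in Cy5 alone, and by 0.58, 0.71 and -0.48 in Cy3. Each Cy5 difference thus had the opposite sign to that in the ratio. Of the ligands of Csf1r, Csf1 had a Cy5 against Cy3 ratio of -1.01 and Il34 one of 0.45, and their group differences were 0.22 ± 0.14 and 0.055 ± 0.12.

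Around Trem2 and Tyrobp, 9 of 10 listed genes were measured, with 6 higher and 3 lower on the oxaliplatin arrays and a median difference of 0.17. Apoe, an apolipoprotein that Trem2 binds, had ratios of 0.41 and 0.54 on the oxaliplatin arrays and of -0.14 and -0.45 on the vehicle arrays, a difference of 0.77 ± 0.15 (adjusted p = 0.294 in limma). Clu (clusterin), another apolipoprotein that Trem2 can bind, differed by 0.68 ± 0.16, and Adam17, a protease that can shed Trem2 from the cell surface, by 0.69 ± 0.21 (adjusted p = 0.294 and 0.300 in limma). The oxaliplatin arrays were above the vehicle arrays for all 3, the genes with the smallest p of this list. Over the 9 genes measured, 3 were apart in the higher and 1 in the lower direction (27% and 22.2% of all genes). Apoe differed by 0.17 in Cy5 and by -0.60 in Cy3, Clu by -0.12 and -0.80, and Adam17 by -0.055 and -0.74, so these differences in the ratio lay mainly in the untreated channel. Astrocytes are a main source of Apoe and Clu in the cord.

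Of 15 other lysosomal genes 10 were higher and 5 lower, with a median difference of 0.23, and for 5 of the 15 both oxaliplatin arrays lay above both vehicle arrays, as they did for 27% of all genes. The membrane proteins Lamp2 and Lamp1 differed by 0.65 ± 0.14 and 0.57 ± 0.18 (adjusted p = 0.294 and 0.300 in limma), and the protective protein Ctsa by 0.31 ± 0.15. The list had a median difference of -0.035 in Cy5, with 5 genes higher and 10 lower, and of -0.32 in Cy3. Lamp2, Lamp1 and Ctsa differed by 0.15, -0.37 and -0.14 in Cy5, and by -0.50, -0.94 and -0.45 in Cy3. In Cy5 against Cy3 this list was mixed, with 4 of 15 called lower and 5 higher, near the 26.3% and 29.3% of all genes. Lamp1 was at -0.997, while Lgals3 (galectin-3) was at 2.67 and Ctsk (cathepsin K, known from osteoclasts) at 2.07. Of 11 other phagocytosis receptors and bridging proteins 4 were higher and 7 lower, with a median difference of -0.074. The Fc receptor Fcgr1a, the kinase receptor Mertk and the scavenger receptor Cd36 differed by -0.37 ± 0.11, -0.31 ± 0.12 and -0.40 ± 0.18 (adjusted p = 0.300, 0.334 and 0.357 in limma). These 3 differed by 0.099, -0.089 and 0.26 in Cy5 alone, and by 0.47, 0.22 and 0.66 in Cy3. Fcgr1a and Cd36 were thus not lower in the treated channel. Itgb2, the partner chain of Itgam, differed by -0.010 and had the same order of the oxaliplatin arrays, at -0.66 and 0.22.

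Of 7 other interferon regulatory factors 4 were higher and 3 lower. Irf7, which interferon induces, had ratios of -0.94 and 2.25 on the oxaliplatin arrays and of 0.12 and -1.06 on the vehicle arrays. The gap between the oxaliplatin arrays, in the direction seen for the 9 genes, was thus far wider for Irf7. Irf5 differed by -0.31 ± 0.12 in the ratio, with the oxaliplatin arrays below the vehicle arrays, and by 0.074 in Cy5 and 0.38 in Cy3. Over these 7 factors 0 were apart in the higher and 1 in the lower direction (27% and 22.2% of all genes).

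Antigen presentation by class II molecules, a function of activated microglia and of other macrophages, had the largest median difference in the ratio of the 15 lists. Of 7 genes measured 5 were higher on the oxaliplatin arrays and 2 lower, with a median difference of 1.19, and 5 had groups apart in the higher direction (27% of all genes). The class II chain RT1-Bb had ratios of 0.90 and 1.47 on the oxaliplatin arrays and of -0.44 and -0.29 on the vehicle arrays, a difference of 1.55 ± 0.19 (SE; adjusted p = 0.229 in limma). It differed by 0.079 in Cy5 and by -1.47 in Cy3, and all 7 genes were lower in Cy3 on both oxaliplatin arrays (31.3% of all genes), so for RT1-Bb the difference in the ratio lay in the Cy3 channel.

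Markers of other macrophages and of blood cells stand beside these values. Of 7 measured markers of perivascular and meningeal macrophages all 7 had a mean ratio above 0 and 5 were called higher in Cy5 (29.3% of all genes), with medians of 0.26 to 0.37 on the 4 arrays and a median of 0.33. Pf4, a chemokine of these macrophages and of platelets, was at 1.92, Siglec1 at 0.63 and the hyaluronan receptor Lyve1 at 0.45. Cd163, a haemoglobin scavenger receptor, differed between the groups by -0.30 ± 0.11 in the ratio (adjusted p = 0.320 in limma), and by 0.19 in Cy5 and 0.49 in Cy3. Of 7 monocyte and granulocyte markers 3 were called higher in Cy5 and 1 lower (29.3% and 26.3% of all genes), among them Lyz2 (lysozyme) at 1.16 and the calprotectin chain S100a8 at 0.88. The medians of these markers were 0.11 and 0.096 on the oxaliplatin arrays and 0.29 and 0.28 on the vehicle arrays. Their part in the values of the 9 genes was not tested.

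**Figure D4:**
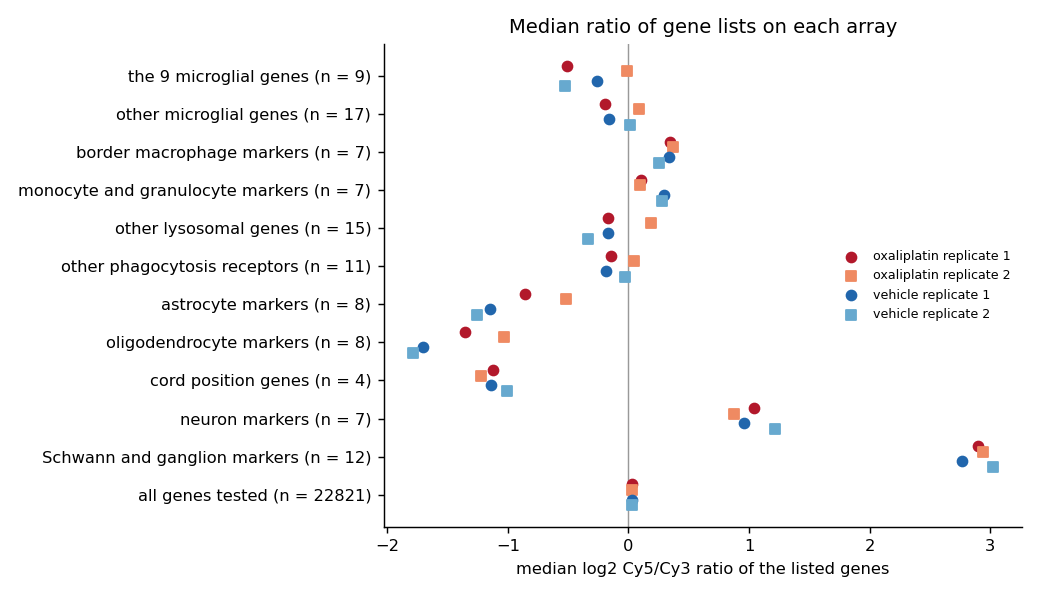
Median log2 Cy5/Cy3 ratio (horizontal axis) of each gene list on each of the 4 arrays, with the number of measured genes in brackets and oxaliplatin arrays above vehicle arrays. The 9 microglial genes lie at -0.53 to -0.015, between the oligodendrocyte markers and the border macrophage markers, and their oxaliplatin arrays are apart.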

How the data were processed

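Dorsal horn RNA was measured on 4 Agilent 2-colour rat arrays, whose titles give group and replicate. Per the file headers, the deposited scanner files give, for Cy3 and Cy5, spot intensity and local background as median pixel signals, the software's processed intensity, a log10 ratio of Cy5 over Cy3, and flags from Agilent Feature Extraction 10.7.1.1; the submitters' processing notes name 8.5.1.1. Flags hold other values than signals, per the file headers. The authors' deposited value table holds log10 ratios that matched the scanner software's to within 0.0050 for every spot it lists, with medians of -0.00277 and 0 for the oxaliplatin and -0.00492 and -0.00316 for the vehicle arrays.

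Signals were corrected by normexp (offset 50) and log2 ratios by within-array loess in which the 4259 control spots per array had weight 0, in limma 3.58.1 under R 4.3.3. Outlier spots were left out, spots of a probe averaged, and 26002 of 30367 probes kept, those with Cy5 marked well above background on 2 or more arrays. Accessions without version were matched to the RefSeq table (GRCr8), which named 18758 probes, and each gene was represented by its brightest probe. Single channels were scaled by Aquantile. Groups were compared by lmFit and eBayes (two-sided, residual df 2) over all 22821 genes, with Benjamini-Hochberg adjustment and a threshold of 0.05. The fit was tested on simulated data. Named genes outside the 9 were, in each of 15 lists, up to 3 with the smallest p and up to 3 with the largest ratio, of which not all are described. Itgb2, Cx3cr1, Olfml3, Fcer1g, Ptprc, Ly86, Spi1 and Laptm5 were named after their values were seen. The 9 genes and the lists were chosen with earlier results of these data known. Same-numbered arrays deviated from their group means with a correlation of -0.22 in the ratio, so the numbers do not pair the arrays.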

Additional observations from a re-analysis of the deposited data

How the results depend on the processing

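In the ratio, the count of genes that differed between the groups was 0 with all 4 arrays and under every other normalisation, filter and probe rule, 3 with the replicate block, 2 to 937 when leaving out an array, and 537 with crossed replicate numbers as a block, an alternative chosen after seeing the data. The block changed no call among the 9 genes. In Cy5 alone it was 0 with the replicate block and 0 to 5576 when leaving out an array, and in Cy3 alone 0 and 0 to 2311. Leaving out an array, the group difference in the ratio ranged over -0.49 to 0.44 for Aif1, -0.085 to 0.45 for Tmem119, -0.24 to 0.68 for Itgam, -0.16 to 0.69 for Trem2, -0.54 to 0.35 for Tyrobp, -0.36 to 0.30 for Ctss and -0.34 to 0.35 for the median of the 9. Those of Irf8, Csf1r and Cd68 stayed below 0. The Cy5 against Cy3 mean ranged over -0.24 to 0.22 for Aif1 and -0.019 to 0.015 for Irf8. In Cy5 alone Itgam ranged over -0.065 to 0.19, Cd68 over -0.54 to 0.25 and Ctss over -0.013 to 0.12. In Cy3 alone Aif1 ranged over -0.44 to 0.43, Tmem119 over -0.86 to 0.0086, Csf1r over -0.39 to 0.036, Itgam over -0.74 to 0.44, Tyrobp over -0.49 to 0.38, Cd68 over -0.12 to 0.53, Ctss over -0.24 to 0.40 and the median over -0.44 to 0.38. Direction also turned in some values near 0. Taking log ratios from the scanner software, the group difference of Irf8 was 0.18 and the Cy5 against Cy3 means of Irf8 and Csf1r were 0.084 and -0.071. With median centring the group differences of Aif1, Ctss and the median were 0.069, 0.079 and 0.069, and the Cy5 against Cy3 mean of Aif1 was 0.48. Without background correction that of Irf8 was 0.070. With scaled ratios Aif1 was at 0.011 in the group difference and 0.013 in the mean. With the mean over probes, Aif1, Csf1r and the median differed by 0.050, 0.0065 and 0.0065, and the Csf1r mean was -0.18. In Cy3 with quantile scaling Aif1 was at 0.011. The median of the Cy5 against Cy3 means was -0.12 with median centring. Irf8 has no value where both channels had to be above background on all arrays. The causes were not tested, beyond the fewer arrays in a fit. Irf8 was close to background in both channels.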
